A study of Mus musculus with 4 samples.

Results

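The metalloproteinases of the MMP, ADAM and ADAMTS families and their TIMP inhibitors were followed in mouse mammary tumours by RNA sequencing. Members were taken by symbol: every gene in the count files whose name begins with Mmp, Adam or Timp and a digit, or with Adamts. This gave 84 genes of the 23282 listed, made up of 23 MMP, 33 ADAM, 19 ADAMTS, 5 ADAMTS-like and 4 TIMP genes. The 4 tumours came from 14-week-old female FVB mice that all carry PyMT, the middle T oncogene of polyoma virus, and 2 were labelled Nr1d1+/+ and 2 Nr1d1-/-. Nr1d1 encodes REV-ERBα, a repressor of the circadian clock, and the comparison asks which transcripts differ between tumours of both genotypes. What drives PyMT, how the null allele was made, and whether a library is 1 tumour or a pool were not given in the sources used here.

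These enzymes are zinc proteases that act outside the cell or at its surface. MMPs cut collagens and other matrix proteins, are made as inactive precursors, and are held in check by TIMPs. ADAMs are membrane-anchored and shed the outer part of other membrane proteins, among them growth factors, cytokines and Notch receptors. ADAMTS enzymes are secreted and cut proteoglycans, procollagens or von Willebrand factor, while ADAMTS-like proteins share their binding modules but lack the protease domain. In mammary tumours much of the matrix-degrading set is known to be made by stromal and immune cells as well as by the epithelium.

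Total counts ran from 15905404 to 19116279 per library, and 1 count was worth 0.0473 to 0.0733 CPM (counts scaled to a common library size with TMM factors). Nr1d1 itself had 20.1 and 10.3 CPM in the Nr1d1+/+ libraries and 10.6 and 12.8 CPM in the libraries labelled Nr1d1-/-, so that the groups overlapped and the directions below rest on the labels. The library Nr1d1-/- replicate 1 stood apart in skeletal muscle transcripts: 11 muscle markers summed to 827 CPM there and to 22.1 to 30.3 CPM in the others. Luminal epithelial markers were abundant in every library, from 5580 to 10400 CPM summed over 10 genes. No label ties the replicates to different animals. The p-values therefore cover only the spread among these 4 samples, which may be technical. Counts of Rn45s, the ribosomal RNA precursor, took 2.94% and 3.39% of the Nr1d1+/+ libraries and 4.36% and 7.64% of the Nr1d1-/- libraries, so this share moved with the genotype label, and its part in the results was not tested. In bulk tissue, fewer cells of a type and less RNA per cell cannot be told apart. In what follows, values of a genotype are given in the order replicate 1 and replicate 2, means are ± SD (n = 2), and each log2 fold is Nr1d1-/- over Nr1d1+/+ with its standard error (SE).

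Of the 84 genes, 48 had enough counts to be tested, 18 were at 0 in all 4 libraries, and the other 18 never exceeded 22 counts in a library. Among the 48, 14 rose and 6 fell in Nr1d1-/- relative to Nr1d1+/+ (edgeR adjusted p under 0.05), and 28 did not pass. The share called higher was 29.2%, against 16.5% of all tested genes, and the share called lower was 12.5%, against 17.3%. The median log2 fold was 0.58 over the 48 genes and -0.01 over all 14801 tested genes. For 36 of the 48 genes (75%) the genotypes did not overlap, which was so for 70.5% of all tested genes. When library size alone set the scale, the median of all genes moved to -0.38 and 10 members were called in each direction, in place of 14 and 6, against 8.65% of all tested genes higher and 29.8% lower. Mmp12 (edgeR adjusted p = 0.0699), Mmp19 (0.111), Adamts2 (0.164) and Adamts7 (0.11) were the calls that ended under that scaling. Relative to that median, no member's log2 fold moved by more than 0.02. Leaving out an Nr1d1+/+ library cut the calls most: without replicate 1, 6 members were higher and 3 lower, against 9.57% and 11.8% of all genes then tested, and without replicate 2, 5 were higher and 2 lower, against 6.75% and 7.62%.

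**Figure D1:**
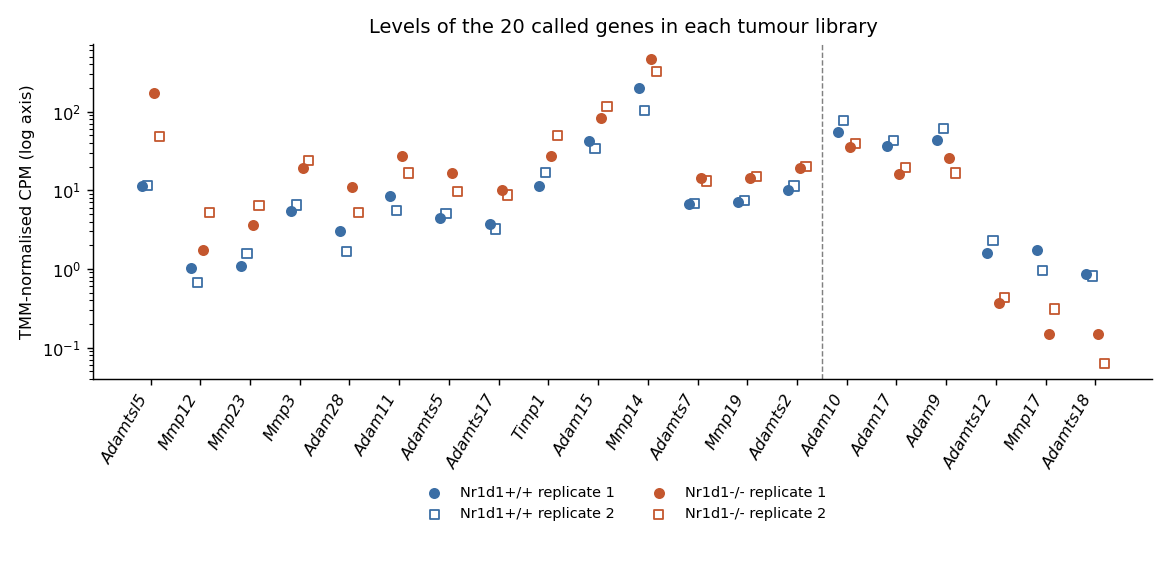
Normalised level (CPM, log axis) of the 20 genes that passed, in each of the 4 libraries, with the 14 called higher left of the dashed line and the 6 called lower right of it, each set ordered by fold. The libraries labelled Nr1d1-/- (orange) lie on 1 side of the Nr1d1+/+ libraries (blue) for all 20, from Mmp14 at 103 to 463 CPM down to Adamts18 at 0.062 to 0.851 CPM.

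Set per kilobase of its longest annotated transcript, Mmp14 had the highest mean level of the 48 tested genes in both genotypes, at 47.1 CPM per kb in Nr1d1+/+ and 122 CPM per kb in Nr1d1-/-. In Nr1d1+/+ it was followed by Timp2 at 25.9, Mmp15 at 21.7, Adamts13 at 18.7 and Timp1 at 16.1 CPM per kb. In Nr1d1-/- the next were Adamtsl5 at 56.3, Timp1 at 43.3, Adam15 at 33.6 and Adamts13 at 31.8 CPM per kb, with Timp2 at 26.9 CPM per kb. The Nr1d1-/- means of Adamtsl5 and Adamts13 rest largely on replicate 1, as their values below show. Neighbours in these orders were not tested against each other.

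Of 13 tested MMP genes, 5 were higher (38.5%) and 1 lower (7.69%), against 16.5% and 17.3% of all tested genes. The higher calls outside the membrane-type class were Mmp3, Mmp12, Mmp19 and Mmp23, and the lower call was the membrane-type Mmp17. Mmp3, stromelysin 1, which cuts many matrix proteins and activates other MMP precursors, was at 5.39 and 6.51 CPM in Nr1d1+/+ and at 19.3 and 23.7 CPM in Nr1d1-/-. Both Nr1d1-/- values were thus well above both Nr1d1+/+ values, a difference of 1.86 on the log2 scale (SE 0.28, edgeR adjusted p = 0.00298). Mmp12, the macrophage metalloelastase, was at 1.04 and 0.67 CPM against 1.76 and 5.27 CPM (log2 fold 2.06 with SE 0.66, edgeR adjusted p = 0.0398). Most of that difference came from Nr1d1-/- replicate 2, and without it the log2 fold was 1.02 (edgeR adjusted p = 0.274). The call for Mmp12 also ended without Nr1d1+/+ replicate 1 (edgeR adjusted p = 0.109) and without Nr1d1+/+ replicate 2 (0.205), and it was made without Nr1d1-/- replicate 1 (log2 fold 2.61, edgeR adjusted p = 0.00891). The 11 macrophage markers summed to 304 and 345 CPM in Nr1d1+/+ and 404 and 494 CPM in Nr1d1-/-, with none at 0. The 3 called higher were C1qa (log2 fold 1.94), C1qb (1.41) and C1qc (1.44). Cd14 was called lower (-0.56), and the other 7 did not pass. Of the 11 log2 folds 10 were positive, with a median of 0.3. The part of the macrophage markers in the Mmp12 result was not tested.

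Mmp19, an MMP of wide tissue distribution, was close to equal within each genotype, at 7 and 7.42 CPM against 14.3 and 15 CPM (log2 fold 1.02 with SE 0.28, edgeR adjusted p = 0.0221). Its call ended without Nr1d1+/+ replicate 1 (log2 fold 0.94, edgeR adjusted p = 0.128), without Nr1d1+/+ replicate 2 (1.04, 0.111) or without Nr1d1-/- replicate 2 (0.97, 0.0541). Exons of Mmp19 overlap those of Tmem198b on the other strand over 789 bases, and Tmem198b itself did not pass (log2 fold 0.53). The sources used here do not say whether the strand was used in counting, so reads from the shared stretch cannot be assigned. Mmp23, a short MMP that is anchored in the membrane by its N-terminal part, had 1.09 and 1.58 CPM against 3.59 and 6.45 CPM (log2 fold 1.92 with SE 0.50, edgeR adjusted p = 0.0189). Its genotypes did not overlap, but the call ended without Nr1d1+/+ replicate 1 (log2 fold 1.64, edgeR adjusted p = 0.122), without Nr1d1+/+ replicate 2 (2.19, 0.0735) or without Nr1d1-/- replicate 2 (1.41, 0.0801).

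Collagenase and gelatinase transcripts were scarce or did not pass. Mmp13, collagenase 3, was at 1.32 and 0.574 CPM against 4.83 and 1.36 CPM, a difference of 1.66 on the log2 scale (SE 0.72, edgeR adjusted p = 0.108). The lower Nr1d1-/- value lay only just above the higher Nr1d1+/+ value. Without Nr1d1-/- replicate 2 Mmp13 passed (log2 fold 2.32, edgeR adjusted p = 0.0186), and without Nr1d1-/- replicate 1 its log2 fold was 0.52 (edgeR adjusted p = 0.645). Mmp2, the gelatinase of fibroblasts, overlapped between genotypes at 11.3 and 17.1 CPM against 14.9 and 30.1 CPM (log2 fold 0.67 with SE 0.36, edgeR adjusted p = 0.182). Mmp2 passed without Nr1d1-/- replicate 1 (log2 fold 1.08, edgeR adjusted p = 0.0303), and its log2 fold was 0.05 without Nr1d1-/- replicate 2. Mmp9, the gelatinase of neutrophils and macrophages, had 0, 6, 1 and 2 raw counts in the order of the libraries and was not tested. The highest of these values corresponds to 0.287 CPM. Mmp11, stromelysin 3, known from stromal cells around carcinomas, was at 0.662 and 1 CPM against 1.83 and 1.98 CPM (log2 fold 1.19 with SE 0.58, edgeR adjusted p = 0.141).

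Mmp3, Mmp12 and Mmp13 belong to a cluster of 10 MMP genes on chromosome 9 between 7272514 and 7699585 (GRCm38), a stretch of 427 kb that holds no other member. Mmp1a, Mmp1b and Mmp10 of this cluster were at 0 counts in every library, which allows levels of up to 0.142 to 0.22 CPM (3 counts, counting error only). Mmp7, Mmp20 and Mmp27 had at most 8 counts in a library, and Mmp8, the neutrophil collagenase, had 0 and 8 counts in Nr1d1+/+ and 22 and 8 in Nr1d1-/-. Detection within the cluster was therefore limited to a few genes, with Mmp3 leading in every library.

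**Figure D2:**
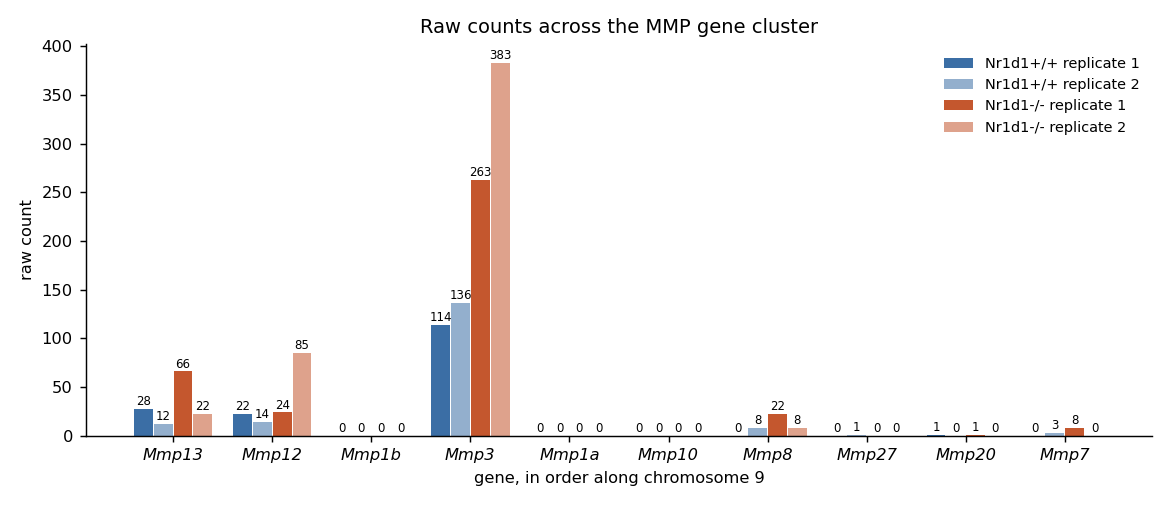
Raw counts of the 10 MMP genes of the chromosome 9 cluster, in their order along the chromosome, in each of the 4 libraries (bars, with the count written above). Mmp3 has the highest count of the cluster in every library, from 114 to 383, Mmp12 and Mmp13 have 12 to 85, and Mmp1a, Mmp1b and Mmp10 are at 0.

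The promoters of this cluster share the letters of the AP-1 element TGANTCA, the binding site of Fos and Jun dimers, which is a textbook control element of Mmp1, Mmp3 and Mmp13. In RefSeq promoter windows (GRCm38.p6, 250 bases before to 50 after the annotated start, both strands) the motif was found in 8 of the 10 cluster genes, in 5 of the 43 other members that have a window, and in 8.97% of all 27025 genes with one. The matches of the 8 genes are shown with 15 bases on each side, 5′ to 3′ along the gene, with the motif in capitals, since they are a feature the naming rule did not use.
Mmp13: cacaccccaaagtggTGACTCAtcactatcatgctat
Mmp12: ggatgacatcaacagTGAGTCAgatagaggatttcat
Mmp1b: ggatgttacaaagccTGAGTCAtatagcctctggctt
Mmp3: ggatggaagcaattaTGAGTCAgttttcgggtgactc
Mmp1a: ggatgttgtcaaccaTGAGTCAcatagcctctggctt
Mmp10: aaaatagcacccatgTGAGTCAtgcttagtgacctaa
Mmp20: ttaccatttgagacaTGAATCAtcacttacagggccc
Mmp7: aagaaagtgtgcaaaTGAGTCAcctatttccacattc
The Mmp3 stretch lies at chr9:7445761-7445797 on the plus strand, 46 bases before the start. That of Mmp13 lies at chr9:7272464-7272500 on the plus strand, 35 bases before the start, and that of Mmp12 at chr9:7347315-7347351 on the plus strand, 44 bases before the start in 1 of its windows. Genes at 0 counts (Mmp1a, Mmp1b, Mmp10) and detected ones (Mmp3, Mmp12, Mmp13) both held the letters, so a match is a description of the window and not of use. Of 7 AP-1 subunit genes in the list of inducing factors, Jun, Fos and Fosl2 were called lower, Jund was called higher, and Fosl1, Fosb and Junb did not pass. Jun was at 106 and 103 CPM against 35.5 and 37.5 CPM (log2 fold -1.52 with SE 0.18, edgeR adjusted p = 0.00207). Fos, named here after its values were seen, was at 47.9 and 60.6 CPM against 23.7 and 12.6 CPM (log2 fold -1.59 with SE 0.30, edgeR adjusted p = 0.00602). Fosl2, likewise named after its values were seen, was at 49.1 and 52.5 CPM against 23.4 and 26.5 CPM (log2 fold -1.02 with SE 0.20, edgeR adjusted p = 0.00679). Jund was at 336 and 325 CPM against 552 and 569 CPM (log2 fold 0.76 with SE 0.17, edgeR adjusted p = 0.0103), and its log2 fold turned to -0.30 (edgeR adjusted p = 0.256) once the GC and length trends described below were removed. Jund also did not pass without Nr1d1+/+ replicate 2 (edgeR adjusted p = 0.062) or when library size alone set the scale (0.0848).

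Membrane-type MMPs differed in both level and direction. Mmp14, which encodes MT1-MMP, the collagenase of the cell surface and activator of the Mmp2 precursor, was at 202 and 103 CPM in Nr1d1+/+ and at 463 and 326 CPM in Nr1d1-/-. All 4 values were far above the floor and the genotypes did not overlap, although both Nr1d1+/+ libraries differed from each other. The mean went from 152 ± 69.4 to 395 ± 96.4 CPM (log2 fold 1.37 with SE 0.31, edgeR adjusted p = 0.0113). Mmp15, also a transmembrane collagenolytic MMP, had overlapping values of 127 and 95.8 CPM against 91.9 and 116 CPM (log2 fold -0.10 with SE 0.21, edgeR adjusted p = 0.748). Mmp17, an MMP held to the membrane by a lipid anchor, fell from 37 and 20 counts to 2 and 5 counts (1.75 and 0.957 CPM to 0.147 and 0.31 CPM). Its pooled ratio of Nr1d1-/- to Nr1d1+/+ was 0.173 with an exact 95% interval of 0.0667 to 0.381 that covers counting error only. The call for Mmp17 was borderline (edgeR adjusted p = 0.0499) and ended without any 1 library (edgeR adjusted p from 0.0691 to 0.358). The remaining membrane-type genes Mmp16, Mmp24 and Mmp25 overlapped between genotypes and did not pass.

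Among the inhibitors, Timp1 moved and Timp2 did not pass. Per kilobase, Timp2 was the more abundant in Nr1d1+/+ (25.9 against 16.1 CPM per kb) and Timp1 in Nr1d1-/- (43.3 against 26.9). Timp1, an inducible inhibitor that also acts as a growth factor, was at 11.4 and 17 CPM against 27.3 and 49.2 CPM (log2 fold 1.43 with SE 0.33, edgeR adjusted p = 0.0118). Both Nr1d1-/- values were above both Nr1d1+/+ values, and the libraries within each genotype also differed. The call for Timp1 ended without Nr1d1+/+ replicate 1 (log2 fold 1.13, edgeR adjusted p = 0.0612) or Nr1d1-/- replicate 2 (0.92, 0.0523) and once GC and length trends were taken out (0.87, 0.0855). Timp2, which inhibits MMPs and also takes part in the activation of the Mmp2 precursor by MT1-MMP, was at 94.7 and 97.3 CPM against 108 and 91.7 CPM (log2 fold 0.05 with SE 0.18, edgeR adjusted p = 0.837). Timp3, the matrix-bound inhibitor that also blocks ADAM17 and aggrecanases, was at 30.8 and 42.4 CPM against 21.5 and 29.8 CPM (log2 fold -0.51 with SE 0.25, edgeR adjusted p = 0.153). With the trends removed Timp3 stood at -0.09 while under library-size scaling it passed (log2 fold -0.89, edgeR adjusted p = 0.0282). Timp3 lies inside Syn3 on the other strand and shares 1733 exon bases with it. Timp4 was at 0 in every library. Summed per kilobase, MMP transcripts were 2.25 and 1.23 times the TIMP transcripts in Nr1d1+/+ and 2.96 and 1.87 times in Nr1d1-/-, so this ratio overlapped between the genotypes.

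**Figure D3:**
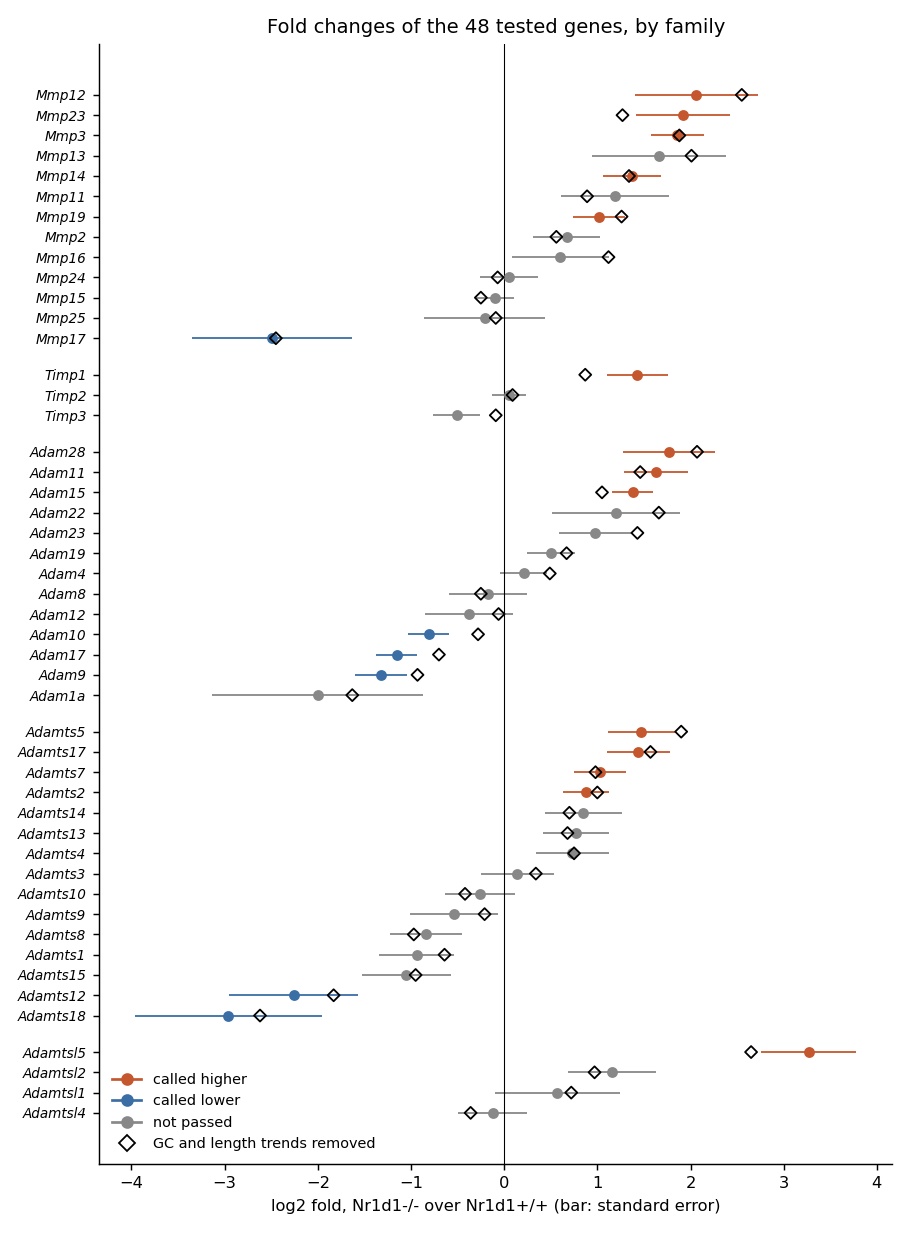
Log2 fold (Nr1d1-/- over Nr1d1+/+) of the 48 tested genes grouped by family, with bars for the standard error, coloured by call, and open diamonds for the fit with GC and length trends removed. Adamtsl5 lies highest at 3.27 and Adamts18 lowest at -2.96, and the diamonds of Adam9, Adam10 and Adam17 lie nearer to 0 than their circles.

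The main sheddases of the ADAM family were lower in the libraries labelled Nr1d1-/-, while Adam15 and Adam28 were higher. Adam10, the sheddase of Notch receptors and cadherins, was at 55.7 and 76.6 CPM in Nr1d1+/+ and 35.7 and 39.6 CPM in Nr1d1-/- (log2 fold -0.81 with SE 0.22, edgeR adjusted p = 0.0214). Adam17, the TNF-alpha converting enzyme, was at 36.8 and 43 CPM against 16.3 and 19.6 CPM (log2 fold -1.15 with SE 0.22, edgeR adjusted p = 0.00657). Adam9, which sheds several growth factors and receptors, was at 43.4 and 61.4 CPM against 25.6 and 16.6 CPM (log2 fold -1.32 with SE 0.28, edgeR adjusted p = 0.00854). For all 3 genes both Nr1d1-/- values lay below both Nr1d1+/+ values. Their transcripts are long and GC-poor, and with the trends removed the log2 folds were -0.28 for Adam10 (edgeR adjusted p = 0.343), -0.70 for Adam17 (0.0451) and -0.93 for Adam9 (0.0362), so that Adam10 no longer passed. Adam10 also did not pass without Nr1d1+/+ replicate 2 (log2 fold -0.59, edgeR adjusted p = 0.169) or Nr1d1-/- replicate 1 (-0.74, 0.0646). Exons of Adam17 overlap those of Iah1 on the other strand over 311 bases, and Iah1 did not pass (log2 fold 0.45).

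Adam15, an ADAM with an integrin-binding motif, was at 42.5 and 34.3 CPM against 83.9 and 116 CPM (log2 fold 1.38 with SE 0.22, edgeR adjusted p = 0.00359). In Nr1d1+/+ the mean of Adam15 was 12.9 CPM per kb, next to 13.0 for Adam9 and 14.4 for Adam10, and in Nr1d1-/- it was 33.6 CPM per kb against 5.21 and 8.20. Adam28, known from lymphocytes and from epithelia, was at 3.03 and 1.67 CPM against 11 and 5.21 CPM (log2 fold 1.77 with SE 0.49, edgeR adjusted p = 0.0249). Its call ended without Nr1d1+/+ replicate 2 (log2 fold 1.38, edgeR adjusted p = 0.144) or Nr1d1-/- replicate 1 (1.14, 0.122). T and B cell markers summed to 11.7 and 14 CPM against 22.6 and 19.8 CPM over 10 genes (6 tested, 1 called higher), and their part in this result was not tested. Adam8, an ADAM of leukocytes, overlapped between genotypes at 4.07 and 8.23 CPM against 5.13 and 5.77 CPM (log2 fold -0.17 with SE 0.42, edgeR adjusted p = 0.778).

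Adam11, a brain ADAM without protease activity, was at 8.41 and 5.55 CPM against 27 and 16.6 CPM (log2 fold 1.63 with SE 0.34, edgeR adjusted p = 0.00843). Without Nr1d1+/+ replicate 2 its log2 fold was 1.34 (edgeR adjusted p = 0.0512). Its non-proteolytic relatives Adam22 and Adam23 did not overlap between genotypes either, as was so for 70.5% of all tested genes, but did not pass. For Adam22 the lower Nr1d1-/- value (1.18 CPM) lay only just above the higher Nr1d1+/+ value (1.15 CPM). With the trends removed Adam23 passed (log2 fold 1.43, edgeR adjusted p = 0.0286). Neural markers summed to 145 and 95 CPM against 618 and 286 CPM over 10 genes, none of them at 0. Of these, 7 were tested, with 1 called higher and 2 lower, and the part of the neural markers in these ADAM values was not tested. The other ADAM genes are mostly known from testis: of 21, 13 were at 0 in every library and 2 were tested, Adam1a and Adam4, neither of which passed. Adam1a shares 1805 exon bases with Mapkapk5 on the same strand, and Adam4 lies inside Cox16 on the same strand, so how counts split between them is uncertain. Mapkapk5 was itself called lower (log2 fold -0.91, edgeR adjusted p = 0.0309).

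Among 15 tested ADAMTS genes, 4 were higher (26.7%) and 2 lower (13.3%), against 16.5% and 17.3% of all tested genes. The median log2 fold was -0.69 over the 6 tested proteoglycanases, 2 of them positive, and 0.85 over the 3 procollagen N-propeptidases, all positive. Adamts5, an aggrecanase that also cuts versican, was at 4.4 and 5.07 CPM against 16.7 and 9.67 CPM (log2 fold 1.47 with SE 0.36, edgeR adjusted p = 0.0155). It alone passed among the 6 tested proteoglycanases, and its call ended without Nr1d1+/+ replicate 1 (log2 fold 1.32, edgeR adjusted p = 0.0762), without Nr1d1+/+ replicate 2 (1.55, 0.0579) or without Nr1d1-/- replicate 1 (1.03, 0.0731). Adamts1, which lies 53.1 kb from Adamts5 on chromosome 16, leaned the other way at 6.71 and 4.64 CPM against 2.86 and 3.04 CPM (log2 fold -0.94 with SE 0.40, edgeR adjusted p = 0.103). With library size as the only scaling Adamts1 passed (log2 fold -1.31, edgeR adjusted p = 0.0293). Adamts4, the other main aggrecanase, was at 2.88 and 2.58 CPM against 4.32 and 4.71 CPM (log2 fold 0.73 with SE 0.39, edgeR adjusted p = 0.186).

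Adamts8 and Adamts15, proteoglycanases that lie 20.1 kb apart on chromosome 9, are named here after their values were seen. Adamts8 was at 9.93 and 11.5 CPM against 8.28 and 3.84 CPM (log2 fold -0.84, edgeR adjusted p = 0.13). Adamts15 was at 8.08 and 4.93 CPM against 1.83 and 4.34 CPM (log2 fold -1.05, edgeR adjusted p = 0.124). In each gene a different Nr1d1-/- library was the lower one. Adamts8 passed without Nr1d1-/- replicate 1 (log2 fold -1.48, edgeR adjusted p = 0.0247) and stood at -0.39 (0.422) without replicate 2. Adamts15 passed without Nr1d1-/- replicate 2 (-1.84, 0.0337) and stood at -0.59 (0.381) without replicate 1. With library size only both passed (-1.23, 0.0327 and -1.41, 0.0415).

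Of the procollagen N-propeptidases, which trim the ends of fibrillar collagen precursors, Adamts2 was at 10.2 and 11.3 CPM against 19.4 and 20.2 CPM (log2 fold 0.88 with SE 0.25, edgeR adjusted p = 0.0261). Values within each genotype were close, yet the call ended without any 1 library (log2 fold 0.76 to 0.94, edgeR adjusted p from 0.0505 to 0.161). Adamts3 and Adamts14, of the same class, did not pass. Adamts7, which cuts the cartilage protein COMP, was at 6.67 and 6.79 CPM against 14.5 and 13.1 CPM (log2 fold 1.03 with SE 0.28, edgeR adjusted p = 0.0234). Its call ended without Nr1d1+/+ replicate 1 (log2 fold 0.97, edgeR adjusted p = 0.123), without Nr1d1+/+ replicate 2 (1.02, 0.123) or without Nr1d1-/- replicate 1 (0.96, 0.065). Adamts12, its closest relative and also a COMP-cutting enzyme, went the other way, from 34 and 48 counts to 5 and 7 counts (1.61 and 2.3 CPM to 0.366 and 0.434 CPM). The pooled ratio for Adamts12 was 0.207 (exact 95% interval 0.103 to 0.381, counting error only) and the edgeR adjusted p was 0.0344. Without any 1 library Adamts12 did not pass (edgeR adjusted p from 0.0613 to 0.272), nor did it with the trends removed (0.0891).

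Adamts17, mutated in a short-stature and lens disorder in humans, was at 3.69 and 3.21 CPM against 10 and 8.68 CPM (log2 fold 1.44 with SE 0.34, edgeR adjusted p = 0.0137). The call ended without Nr1d1+/+ replicate 1 (log2 fold 1.49, edgeR adjusted p = 0.0585) or Nr1d1+/+ replicate 2 (1.31, 0.0988). Adamts18, an enzyme known to act in mammary gland development, had 18 and 17 counts in Nr1d1+/+ and 2 and 1 counts in Nr1d1-/-. Its pooled ratio was 0.121 (exact 95% interval 0.0238 to 0.384, counting error only), with an edgeR adjusted p of 0.0433 that rose to between 0.0906 and 0.283 without any 1 library. Adamts13, the protease of von Willebrand factor, is named here after its values were seen because a single library carried its difference. It was at 80.6 and 87.6 CPM against 204 and 81.8 CPM (log2 fold 0.77 with SE 0.35, edgeR adjusted p = 0.127). Without Nr1d1-/- replicate 1 the log2 fold turned to -0.04 (edgeR adjusted p = 0.908), and without Nr1d1-/- replicate 2 it was 1.26 (0.00332). Its substrate gene Vwf was called higher, from 1.69 ± 0.557 to 7.12 ± 0.635 CPM (log2 fold 2.07 with SE 0.42, edgeR adjusted p = 0.00751), and did not pass without Nr1d1+/+ replicate 2 (0.0664).

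Adamtsl5, a secreted protein without a protease domain that is known to bind fibrillin, had the largest log2 fold of the 48 genes. It was at 11.3 and 11.4 CPM in Nr1d1+/+ and at 172 and 48.3 CPM in Nr1d1-/- (log2 fold 3.27 with SE 0.51, edgeR adjusted p = 0.00328). Both Nr1d1-/- libraries were several times above both Nr1d1+/+ libraries, and replicate 1, the library rich in muscle transcripts, was the higher of them. Without Nr1d1-/- replicate 1 the log2 fold was 2.08 (edgeR adjusted p = 0.00173), and without Nr1d1-/- replicate 2 it was 3.9. Adamtsl5 spans 80339110 to 80348412 of chromosome 10 (GRCm38, minus strand). Its promoter is shown because it belongs to the gene with the largest difference and holds the hexamer AGGTCA, the core of the elements that REV-ERB and other nuclear receptors bind, at 202 and 137 bases before the start (capitals). The window is chr10:80348399-80348698 on the minus strand (RefSeq, GRCm38.p6), 5′ to 3′ along the gene.
Adamtsl5: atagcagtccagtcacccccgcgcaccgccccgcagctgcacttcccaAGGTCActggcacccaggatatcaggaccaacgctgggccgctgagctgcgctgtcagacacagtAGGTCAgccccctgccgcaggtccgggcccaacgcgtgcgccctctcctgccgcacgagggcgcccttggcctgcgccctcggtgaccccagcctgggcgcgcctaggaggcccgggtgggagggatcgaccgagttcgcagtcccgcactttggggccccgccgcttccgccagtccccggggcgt
The window has 72% GC. Its last bases were not found in a GENCODE transcript of the gene, so both distances count from the RefSeq start only. AGGTCA was searched on both strands and stood in 10 of the 53 members with a promoter window and in 18.1% of all genes with one, so the hexamer was about as frequent among the members as elsewhere. Of the other ADAMTS-like genes, Adamtsl1, Adamtsl2 and Adamtsl4 did not pass and Adamtsl3 had 4 or 5 counts per library.

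The fold of a gene followed the GC content and length of its transcript across all tested genes, with Spearman correlations of 0.314 and -0.322 over genes, which share libraries and are not independent. The 14 members called higher had a median GC content of 54.1% and a median length of 3320 bases, and the 6 called lower had 46.7% and 5117.5 bases. With both trends removed from each library, 13 members were higher and 2 lower, against 11.4% and 10.6% of the genes then tested. Of the 14 higher calls 12 were kept, and Timp1 and Mmp23 (log2 fold 1.27, edgeR adjusted p = 0.0968) were not. Of the 6 lower calls 2 were kept, Adam9 and Adam17. Across all 13 alternatives, 6 of the 20 calls held wherever the gene was tested: Mmp3, Mmp14, Adam15 and Adamtsl5 higher, and Adam9 and Adam17 lower.

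**Figure D4:**
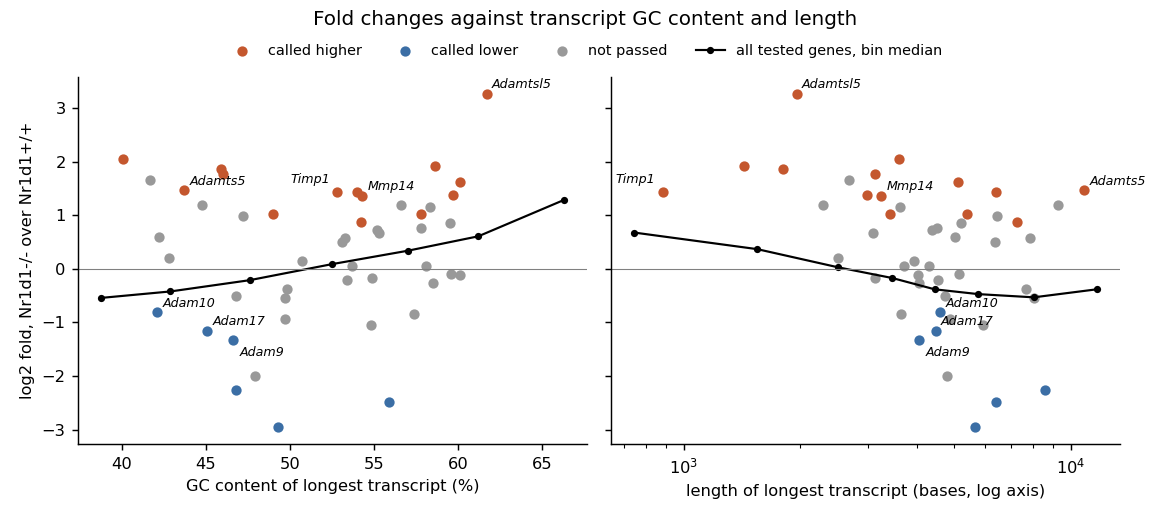
Log2 fold of the 48 tested genes against GC content (left, %) and length (right, bases, log axis) of the longest transcript, coloured by call, with a black line for the median of all tested genes in bins of at least 50 genes. The line runs from -0.54 to 1.29 over GC content and falls from 0.68 for the shortest transcripts, and Adamts5 and Adamtsl5 lie far above it while Adam9 lies below it.

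Partners and substrates were described from 6 lists with 114 genes. Of the 100 tested, 20 were higher, 24 were lower and 56 did not pass, with a median log2 fold of -0.06. These counts, and those of the single lists, stand beside 16.5% of all tested genes called higher and 17.3% called lower, and the pooled counts lie near those shares. Among 8 tested partners of ADAM10 and ADAM17, 2 fell and none rose, against 17.3% and 16.5% of all tested genes. Tspan14, a tetraspanin that carries ADAM10 to the surface, was at 74.6 and 69.7 CPM against 33.4 and 35.7 CPM (log2 fold -1.06 with SE 0.19, edgeR adjusted p = 0.00454). Rhbdf2, which encodes iRhom2, the escort of ADAM17, was at 39.6 and 34.6 CPM against 20.3 and 20.9 CPM (log2 fold -0.85 with SE 0.21, edgeR adjusted p = 0.0164). Both pairs were tight within each genotype and far apart between them, and with the trends removed the log2 folds were -1.06 and -1.03. Rhbdf2 did not pass without Nr1d1+/+ replicate 1 or replicate 2, where the edgeR adjusted p was 0.0852 at most.

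Of 30 tested substrates that ADAMs shed, 4 rose and 9 fell, with a median log2 fold of -0.44. App, the amyloid precursor protein and a substrate of ADAM10, was at 537 and 474 CPM against 180 and 188 CPM (log2 fold -1.46 with SE 0.17, edgeR adjusted p = 0.00207). Tnf, the substrate that named ADAM17, went from 2.88 and 1.91 CPM to 0.0733 and 0.31 CPM, a pooled ratio of 0.0839 (exact 95% interval 0.0301 to 0.189, counting error only, edgeR adjusted p = 0.0107). It did not pass without Nr1d1+/+ replicate 1 (edgeR adjusted p = 0.0891), and without Nr1d1-/- replicate 2 its log2 fold was -4.93. Notch1, named here after its values were seen, was at 77.2 and 63.6 CPM against 36.6 and 43.3 CPM (log2 fold -0.82 with SE 0.20, edgeR adjusted p = 0.0158), and did not pass without Nr1d1+/+ replicate 1 (0.0834) or Nr1d1-/- replicate 1 (0.0575). Aplp2 also fell (log2 fold -0.78 with SE 0.17, edgeR adjusted p = 0.0093), and with the trends removed its log2 fold was -0.51 (edgeR adjusted p = 0.0617). The substrates Efna5 (log2 fold 1.23), Cdh2 (1.65) and Cxcl16 (0.74) rose. Cdh2 did not pass without either Nr1d1+/+ library (edgeR adjusted p 0.0961 and 0.0824), nor did Cxcl16 without Nr1d1+/+ replicate 2 (0.13) or Nr1d1-/- replicate 2 (0.0511) or under library-size scaling (0.149).

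Of 19 tested matrix substrates 6 rose and 1 fell. Comp, the substrate of ADAMTS7 and ADAMTS12, went from 0.523 ± 0.13 to 6.65 ± 2.87 CPM (log2 fold 3.66 with SE 0.57, edgeR adjusted p = 0.00331) and passed in every alternative in which it was tested. Col1a1 rose with a log2 fold of 0.91. The other fibrillar collagen genes of the list, Col1a2 (log2 fold -0.37) and Col3a1 (0.12), named here after their values were seen, did not pass. Nid1, a basement membrane linker, fell from 21.2 ± 14.8 to 6.44 ± 2.9 CPM (log2 fold -1.70 with SE 0.52, edgeR adjusted p = 0.0338). The call for Nid1 ended without Nr1d1+/+ replicate 2 (log2 fold -0.75), without Nr1d1-/- replicate 1 (-1.32) and with the trends removed (-1.38), and that for Col1a1 without Nr1d1+/+ replicate 1 (edgeR adjusted p = 0.0572) or under library-size scaling (0.0539). Among other inhibitors and regulators, 5 of 14 tested rose and 2 fell. Cst3, the cysteine protease inhibitor cystatin C, rose from 31.1 ± 4.18 to 147 ± 14.8 CPM (log2 fold 2.24 with SE 0.20). Bsg, the MMP inducer basigin, rose from 1080 ± 52.8 to 2180 ± 65.6 CPM (log2 fold 1.02 with SE 0.19), which was 0.45 (edgeR adjusted p = 0.14) with the trends removed. Reck, a membrane inhibitor of MMPs and ADAM10, fell from 3.4 ± 0.264 to 1.04 ± 0.542 CPM (log2 fold -1.66 with SE 0.54, edgeR adjusted p = 0.0414), and did not pass with the trends removed (0.109) or without Nr1d1+/+ replicate 1 (0.135), without Nr1d1+/+ replicate 2 (0.21) or without Nr1d1-/- replicate 1 (0.128). Thbs1, a matrix protein that binds and clears MMPs, fell from 385 ± 174 to 57.4 ± 2.91 CPM (log2 fold -2.74 with SE 0.30, edgeR adjusted p = 0.00177).

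Among 11 tested activators and plasminogen system genes, 2 rose and 3 fell, with the share that rose near that of all tested genes. Pcsk5, a proprotein convertase of the furin family, rose from 21 ± 2.98 to 85.8 ± 44.6 CPM (log2 fold 2.03 with SE 0.34, edgeR adjusted p = 0.004). Without Nr1d1-/- replicate 1 the log2 fold of Pcsk5 was 1.37. Its relative Pcsk7 fell from 42.7 ± 9.78 to 16.1 ± 5.08 CPM (log2 fold -1.40 with SE 0.28, edgeR adjusted p = 0.00758). Of 18 transcription factors known to induce MMP genes, 3 rose and 7 fell. Stat3 was at 325 and 289 CPM against 96.1 and 83 CPM (log2 fold -1.78 with SE 0.18, edgeR adjusted p = 0.00134). Runx2, a known activator of Mmp13, was at 24.3 and 17.5 CPM against 84.8 and 79.1 CPM (log2 fold 1.97 with SE 0.22, edgeR adjusted p = 0.00184).

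The summed levels of several marker lists moved with the genotype label. Calls in these lists stand beside the 16.5% of all tested genes called higher. Luminal epithelial markers summed to 6420 and 5580 CPM in Nr1d1+/+ and to 10400 and 9520 CPM in Nr1d1-/- without overlap. Of these 10 markers 3 were called higher, the keratins Krt8, Krt18 and Krt19, with none called lower and none at 0. The list as a whole did not lean 1 way: 5 log2 folds were positive and 5 negative, with a median of 0.13. Of 13 fibroblast markers 5 were called higher and none lower, and they summed to 589 and 904 CPM in Nr1d1+/+ and 827 and 1270 CPM in Nr1d1-/-, with none at 0. Of 9 myoepithelial and smooth muscle markers 5 were higher and 1 lower, with sums of 162 and 182 CPM against 366 and 503 CPM. Of 10 endothelial markers 2 were higher, near the share of all tested genes, with sums of 54.2 and 64.9 CPM against 72 and 108 CPM. Of 10 adipocyte markers 9 were tested and 4 of these were higher, with sums of 215 and 236 CPM against 447 and 293 CPM. Of 9 neutrophil markers 5 were tested and 2 of these were higher. Camp was at 0, and the sum of the 9 markers, 3150 to 4870 CPM, was nearly all Ltf, which mammary epithelium also makes. The part of the cells these lists mark in the values of Mmp3, Mmp14, Timp1 and Adamts5 was not tested.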

How the data were processed

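RNA was sequenced from 4 tumour samples, 2 per genotype. Per the labels' protocols, total RNA came from Trizol extraction and libraries from a SMARTer Stranded kit (Clontech). The submitters' processing notes name TopHat and mm10. The authors deposited raw counts per gene symbol; the counting program, annotation and use of strand were not given in the sources used here.

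From the counts, genes were filtered with filterByExpr (minimum count 10, 14801 of 23282 kept), scaled with TMM and tested with the quasi-likelihood test of edgeR 4.0.16 (legacy=FALSE) (R 4.3.3), fitting genotype alone, which left 2 residual degrees of freedom. A call is a Benjamini-Hochberg adjusted p under 0.05 over all tested genes. Total counts of 15905404 to 19116279 made 3 counts worth 0.142 to 0.22 CPM. Longest transcripts, GC content and positions came from GENCODE M21 (GRCm38), which held 22230 symbols directly and 670 through a synonym. Trends were removed through edgeR offsets, which came from natural splines (5 degrees of freedom) in GC content and length, fitted per library. Ratios of scarce genes have exact Clopper-Pearson intervals. Alternatives also used DESeq2 1.42.0 and limma 3.58.1. The fits were tested on simulated data.

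The text names all members that passed, a fixed set of members of known role whatever their result, and per partner list up to 3 genes in each direction. Members and lists were chosen with earlier results of these data known. Some genes that the rule names are not reported here. Other alternatives were scaling, filters, the replicate number as a block and leaving out each library. Figures used matplotlib 3.10.9.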

Additional observations from a re-analysis of the deposited data

How the results depend on the processing

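Members called higher numbered 14 and members called lower 6; leaving out each library in turn gave 5 to 12 higher and 2 to 4 lower. The lower count was 10 with library size only, 3 with a mean of at least 5 CPM, 3 with DESeq2, 3 with limma-voom and 2 after removing GC and length trends; the higher count stayed within 1.5 times of 14 in all settings that kept every library. Partner and substrate genes had 20 higher and 24 lower calls; the higher count was 12 with library size only, and leaving out each library gave 13 to 19 higher and 15 to 23 lower, lowest without Nr1d1+/+ replicate 2. Among named genes, the range of log2 folds without 1 library was -0.07 to 0.15 for Timp2, -0.31 to 0.08 for Mmp15, -0.64 to 0.40 for Adam8 and -0.04 to 1.26 for Adamts13. Signs turned for Timp2 with library size only (-0.33), without Nr1d1+/+ replicate 1 (-0.01) and without Nr1d1-/- replicate 1 (-0.07), for Mmp15 without Nr1d1+/+ replicate 1 (0.08) and Nr1d1-/- replicate 1 (0.06), for Adam8 without Nr1d1+/+ replicate 2 (0.40), for Adamts13 without Nr1d1-/- replicate 1 (-0.04) and for Jund with the trends removed (-0.30). None of these passed in the setting named, and the cause was not tested. With the replicate number as a block, 14 members were higher and 4 lower, and Mmp17 (adjusted p = 0.0648) and Adamts18 (0.0743) no longer passed. The difference between replicates 1 and 2 correlated at 0.0272 between genotypes over 14801 genes, so the numbers are not shown to pair the samples. Depth limits Mmp17, Adamts12 and Adamts18, which rest on 7, 12 and 3 counts in Nr1d1-/-.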
